A study of Mus musculus with 18 samples.

Results

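Hopx-high and Hopx-low CD4+ T cells were compared by small RNA sequencing. The 3 libraries titled as high in Hopx were set against the 3 titled as low, so 6 of the 18 libraries of the series entered the contrast. All 2220 features of the small RNA table were carried through. The mice were C57BL6, and the cells came from lymph nodes and spleen. The labels give one protocol for every group, naive cells included: chimeric antibodies that carry antigen to dendritic cells, which present it to T cells, had been given by injection into the peritoneum 5 days before the cells were collected. The study set T cells specific for that antigen, activated by dendritic cells and expressing different levels of Hopx, against naive T cells. Hopx is a small homeodomain protein that lacks DNA binding of its own. The labels do not state how cells were told apart by Hopx, nor whether libraries came from separate animals. P-values therefore measure only the spread between these libraries, part of which may be technical. In total RNA, replicate 3 of each group held Xist, the RNA of the inactive X chromosome, at levels (bases per megabase covered) of 112 (Hopx-low) and 187 (Hopx-high), and was at 0 for the Y-linked Ddx3y. In replicates 1 and 2 Xist was at 0 and Ddx3y at 9.44 and 19.5 (Hopx-low) or 5.61 and 16.1 (Hopx-high). The total RNA of each group therefore came from more than 1 animal or pool, with the sexes in the same numbers in both groups. Whether small RNA libraries of the same number came from those animals is not stated.

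MicroRNAs are cut from hairpin precursors, loaded into Argonaute proteins, and pair through their seed, the bases near their 5′ end, with messenger RNAs, which they repress. Several hairpins are often cut from a single primary transcript, and hairpins at different places in the genome can give microRNAs with the same seed. T cells change their microRNAs sharply when antigen activates them: miR-155, miR-146a and miR-21 are known to rise, and miR-150, which is abundant in resting lymphocytes, is known to fall.

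The mature microRNAs below carry the results. The sequences are from RefSeq (GRCm38.p6), 5′ to 3′, with the seed, bases 2 to 8, in capitals. The table gives 1 value per hairpin gene and does not tell the arms apart; the arm shown is the one usually named as the main product. The first set holds the leading rises.
miR-21a-5p: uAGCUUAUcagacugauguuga
miR-221-3p: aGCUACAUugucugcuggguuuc
miR-222-3p: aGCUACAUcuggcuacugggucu
miR-298-5p: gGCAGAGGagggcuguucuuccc
miR-146a-5p: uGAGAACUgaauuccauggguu
miR-23a-3p: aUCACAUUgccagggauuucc
miR-27a-3p: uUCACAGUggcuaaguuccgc
miR-183-5p: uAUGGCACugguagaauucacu
miR-31-5p: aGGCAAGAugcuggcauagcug
miR-221 and miR-222 have the same seed. The second set holds leading falls.
miR-125a-5p: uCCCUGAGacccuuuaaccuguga
miR-26a-5p: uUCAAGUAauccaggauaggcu
miR-542-3p: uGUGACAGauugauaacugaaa
The third set holds microRNAs that share a seed but did not change alike, in 3 families.
let-7i-5p: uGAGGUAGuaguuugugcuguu
miR-98-5p: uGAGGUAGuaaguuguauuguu
let-7c-5p: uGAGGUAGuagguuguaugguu
let-7b-5p: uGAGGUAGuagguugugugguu
miR-15b-5p: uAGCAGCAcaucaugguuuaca
miR-16-5p: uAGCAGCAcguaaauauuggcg
miR-322-5p: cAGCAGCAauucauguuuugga
miR-363-3p: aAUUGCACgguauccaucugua
miR-25-3p: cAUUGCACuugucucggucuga
miR-92a-3p: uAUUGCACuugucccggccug
The last set shares a seed across 2 loci and rose at both.
miR-34a-5p: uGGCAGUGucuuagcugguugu
miR-449a-5p: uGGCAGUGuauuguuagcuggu
miR-449c-5p: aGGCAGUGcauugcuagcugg

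Levels are bases of aligned read over a feature per megabase covered in that library. The 6 libraries held 17.8 to 36.2 megabases, and a level of 1 corresponded to 0.807 to 1.57 reads, so a level of a few units rests on few reads. A feature was tested if its level reached 1 in at least 3 of the 9 small RNA libraries, which left 510 of 2220; 1435 were at 0 in all 6 libraries compared. Annotated microRNAs took 94.5% to 99% of the bases. Correlations of log2 levels were 0.982 to 0.985 among Hopx-low libraries, 0.974 to 0.98 among Hopx-high libraries and 0.966 to 0.979 between the groups. The groups thus lay close to each other. In the matching total RNA libraries, Hopx was at 5.9, 7.49 and 7.59 in Hopx-low and 34.2, 26.1 and 23.1 in Hopx-high cells, so it went with the labels in every library. Its log2 fold change was 1.84 ± 0.44 (SE), adjusted p = 0.0247, in a test that called 2.14% of 11320 features. Leaving out any single compared library but Hopx-high replicate 2 took the adjusted p of Hopx above 0.05, to between 0.0583 and 0.115.

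Of the 510 tested features, 64 were called at adjusted p below 0.05 by limma, which is 12.5% of them. Rises made up 55 calls, or 10.8% of tested features, and falls 9, or 1.76%. The libraries of the groups were apart, without overlap, for all 64 and for 170 features altogether (33.3% of those tested, 119 higher and 51 lower in Hopx-high). The called rises spanned log2 fold changes of 0.62 to 2.05 and the falls -0.88 to -1.92. The excess of rises depended on the scaling: the median tested feature had a log2 fold change of 0.23 when levels were set per megabase, against 0.04 under upper-quartile or median-of-ratios scaling and -0.04 under quantile normalization. Those scalings gave 29 rises and 33 falls, 30 and 34, and 22 and 21. Calls that held in 1 direction under all 4 scalings numbered 27, or 5.29% of tested features: 18 rises and 9 falls. Fold changes below are as measured, and relative to the median feature each rise is smaller, and each fall larger, by 0.23.

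**Figure D1:**
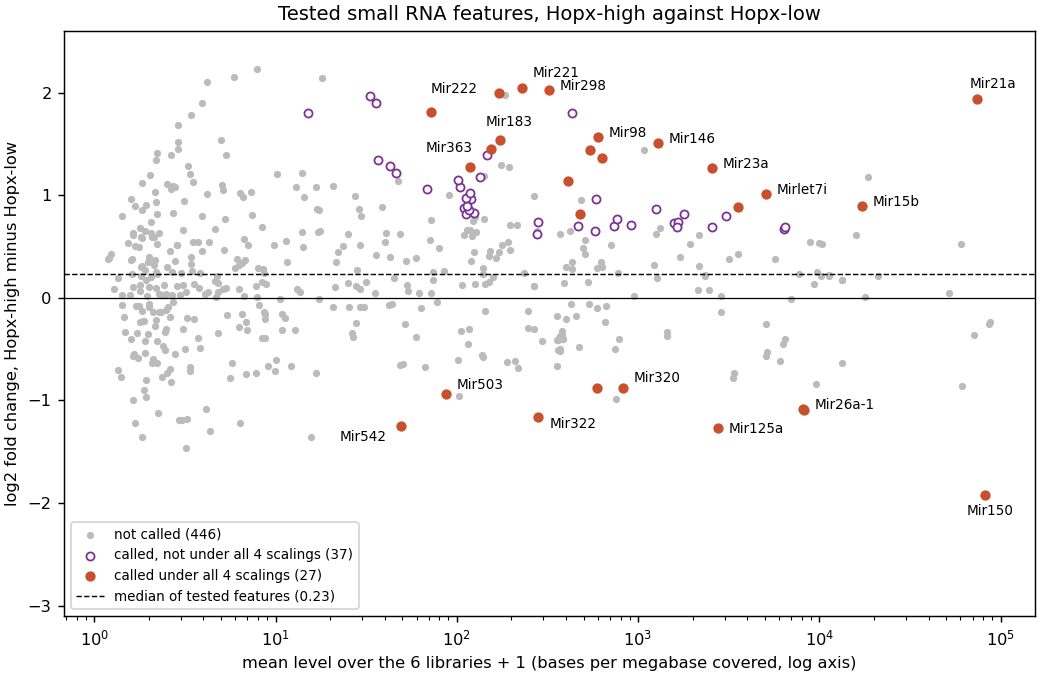
Each point is 1 of the 510 tested small RNA features; the horizontal axis is the mean level over the 6 libraries plus 1 (bases per megabase covered, log scale) and the vertical axis the log2 fold change, Hopx-high minus Hopx-low. Filled points are the 27 features called under all 4 scalings and open points the other 37 calls, all of them rises; Mir21a and Mir150 stand at the far right, at opposite ends.

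Fewer features were called when 1 compared library was left out, and each such fit also has fewer libraries in a group. Without Hopx-low replicate 1, 2 or 3 limma called 29, 61 and 20 features. Without Hopx-high replicate 1, 2 or 3 it called 29, 44 and 23. The cause of these drops was not tested. In all 6 fits that left out 1 compared library, 16 of the 64 were called. They were miR-21a, miR-221, miR-222, miR-298, miR-98, miR-146a, miR-363, miR-183, miR-31, miR-27a, miR-23a, miR-148a, miR-296 and miR-466f-2 among the rises and miR-150 and miR-322 among the falls. The other 48 lost the call in at least 1 such fit. Of the 16, miR-466f-2 alone was not called under all 4 scalings.

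The changes in the most covered features were a rise of miR-21a and a fall of miR-150. miR-21a represses Pdcd4 and is induced when T cells are activated; its hairpin (Mir21a, chr11:86584067-86584158, minus strand, mm10) overlaps the end of the gene Vmp1. Its levels were 37684, 28702 and 24003 in the Hopx-low libraries and 163882, 104207 and 85889.9 in the Hopx-high libraries. Every Hopx-high library was above every Hopx-low library, by 3.92-fold on average (log2 fold change 1.94 ± 0.28 (SE), adjusted p = 0.000572). It took 2.4% to 3.77% of all bases in Hopx-low and 8.59% to 16.4% in Hopx-high libraries, where it was the most covered feature in each. Naive libraries held 4506, 6407 and 3772.

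miR-150, which represses Myb and is high in resting mature lymphocytes, moved the other way (Mir150, chr7:45121757-45121821, plus strand). Its levels were 141107, 117772 and 127855 in Hopx-low and 22169, 41274 and 42409.9 in Hopx-high libraries. The groups did not overlap, and the log2 fold change was -1.92 ± 0.33 (SE), adjusted p = 0.00208, the largest fall of the 9. It was the most covered feature in each Hopx-low library. In naive libraries it stood at 138295, 66815 and 149868, so the Hopx-low libraries lay within the naive range while all Hopx-high libraries lay below it. The ratio of miR-21a to miR-150, which a scaling by 1 factor per library leaves as it is, was 0.267, 0.244 and 0.188 in Hopx-low and 7.39, 2.52 and 2.03 in Hopx-high libraries. Both features were picked for their change, so this ratio is a description.

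Among the microRNAs known to be induced by T-cell activation, miR-146a rose and miR-155 did not pass the test. miR-146a (Mir146, chr11:43374397-43374461, minus strand), a feedback repressor of Traf6 and Irak1 in the NF-κB pathway, was at 616, 876 and 509 in Hopx-low and 2057, 2251 and 1379 in Hopx-high libraries, a log2 fold change of 1.51 ± 0.25 (SE), adjusted p = 0.00185. miR-155 (Mir155), which limits Socs1 and Inpp5d and is needed for effector responses, was at 7979, 8946 and 8133 and 8727, 14729.5 and 13442. Its highest Hopx-low library lay above its lowest Hopx-high library, and its log2 fold change was 0.52 ± 0.22 (SE), adjusted p = 0.148. Naive libraries held 231 to 339 of miR-155, so it stood far above naive cells in both groups. The related miR-146b, with the seed of miR-146a, was at 14.9, 24.1 and 14.2 and 18.6, 29.7 and 24.5, with overlapping groups (adjusted p = 0.605). The pair miR-132 and miR-212 showed no call in 2 tested members.

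The pair with the largest fold changes was miR-221 and miR-222, which are cut from 1 transcript on the X chromosome and repress Cdkn1b, an inhibitor of the cell cycle. miR-221 (Mir221, chrX:19146294-19146388, minus strand) was at 82.9, 87.7 and 93.7 in Hopx-low and 436, 326 and 345 in Hopx-high libraries. miR-222 (Mir222, chrX:19146893-19146971, minus strand) was at 58.1, 70.1 and 73.9 and 291, 238 and 286. Both rose about alike, with log2 fold changes of 2.05 ± 0.27 (SE), adjusted p = 0.000572, and 2.00 ± 0.28 (SE), adjusted p = 0.000572. Their ratio stayed between 1.21 and 1.5 in all 6 libraries. The naive libraries overlapped the Hopx-low libraries for neither miR-221 (34.7, 74.6 and 57.1) nor miR-222 (26, 57.5 and 41.2).

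miR-298 had the smallest adjusted p of all features. It lies with miR-296 in the imprinted Gnas region (Mir298, chr2:174267504-174267585, minus strand). Levels were 134, 144 and 101 in Hopx-low and 547, 508 and 485 in Hopx-high libraries, a log2 fold change of 2.02 ± 0.24 (SE), adjusted p = 0.000341. miR-296 (Mir296, chr2:174267047-174267125, minus strand) was at 298, 249.7 and 223 and 576, 613 and 505, and rose less, by 1.14 ± 0.23 (SE), adjusted p = 0.00663. The ratio of miR-298 to miR-296 was 0.45, 0.578 and 0.452 in Hopx-low and 0.949, 0.828 and 0.961 in Hopx-high libraries. The groups did not overlap in that ratio, so the pair shifted in its proportions as well as its level.

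miR-31, miR-34a and miR-210 were each called higher, 3 of 3 in a short list, against 10.8% of all tested features. The list was chosen with earlier results of these data known, so this count is only a description. miR-31 (Mir31) was at 303, 263 and 307 in Hopx-low and 783, 675 and 938 in Hopx-high libraries (log2 fold change 1.44 ± 0.29 (SE), adjusted p = 0.00662). Naive libraries held 12 to 29, so both activated groups were well above them. miR-210, known as a microRNA of the response to low oxygen, was at 8.66, 11 and 26.5 and 48.7, 61.9 and 51.9 (log2 fold change 1.90 ± 0.48 (SE), adjusted p = 0.0211) and was called in 1 of 6 leave-one-out fits. miR-34a, a target of p53, was at 51.9, 86 and 58.7 and 108, 133 and 178 (log2 fold change 1.08 ± 0.28 (SE), adjusted p = 0.0235). miR-210 and miR-34a were not called under all 4 scalings.

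The seed of miR-34a is also that of miR-449a and miR-449c, which lie together on chromosome 13 and are best known from ciliated epithelium. All 3 tested hairpins with this seed were called higher, against 10.8% of all tested features. The seed was named with these values known, so the count is only a description. miR-449c (Mir449c) was at 31.4, 29 and 30.2 in Hopx-low and 76, 120.4 and 139.6 in Hopx-high libraries, against 1.14, 3.62 and 2.46 in naive libraries (log2 fold change 1.81 ± 0.38 (SE), adjusted p = 0.00989). miR-449a (Mir449a) was at 37.1, 45.1 and 46.8 and 72.9, 102 and 98.4 (log2 fold change 1.06 ± 0.29 (SE), adjusted p = 0.026). These are low levels, and miR-449c held under all 4 scalings while miR-449a, like miR-34a, did not.

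miR-148a, known from repeatedly activated helper T cells as a repressor of Bcl2l11, was at 56, 80.9 and 67.2 in Hopx-low and 177, 176 and 144 in Hopx-high libraries (log2 fold change 1.28 ± 0.26 (SE), adjusted p = 0.00663). miR-130b (Mir130b) was at 352, 344 and 339 and 645, 605 and 583, a log2 fold change of 0.82 ± 0.18 (SE), adjusted p = 0.0108. Its Hopx-low values were almost equal to each other. Its neighbour miR-301b and the related miR-301a (Mir301) were called too, at 1.28 and 0.96, but not under all 4 scalings.

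**Figure D2:**
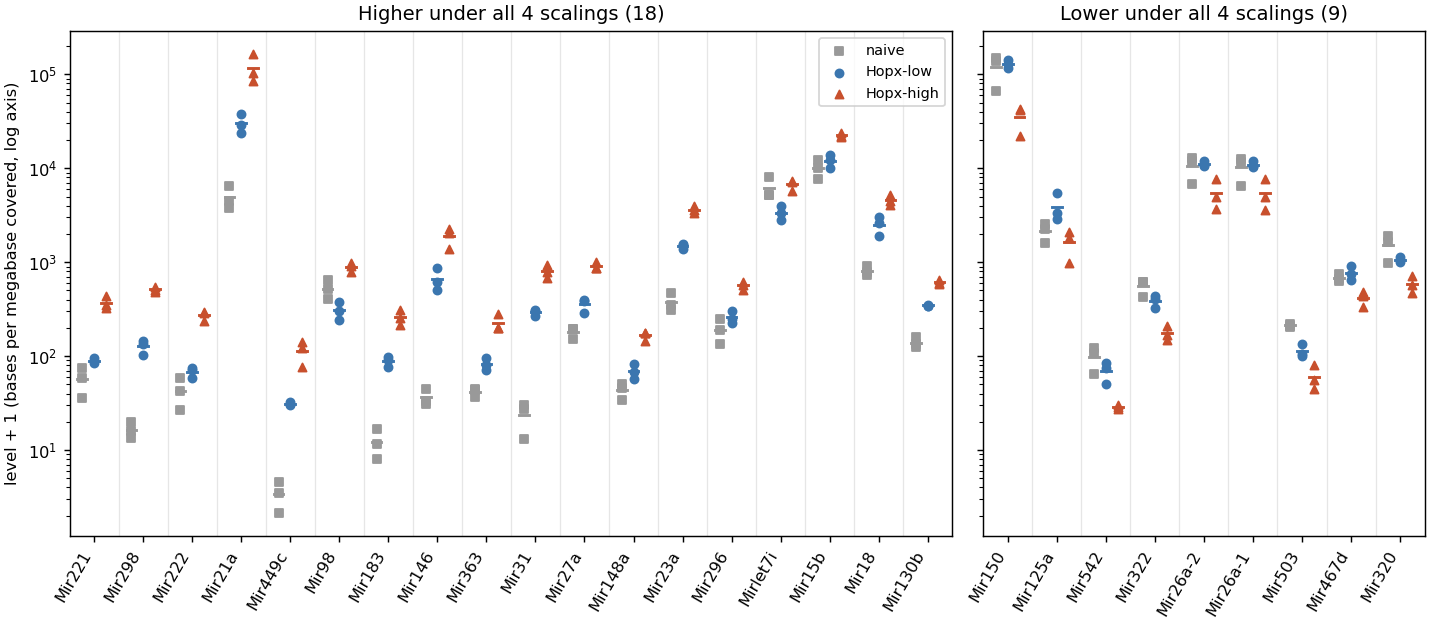
Level plus 1 (bases per megabase covered, log scale) of each library for the 18 features called higher and the 9 called lower under all 4 scalings; each point is a library and each bar the mean of 3. Squares are naive, circles Hopx-low and triangles Hopx-high libraries, and in every column the triangles are clear of the circles.

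Besides miR-150, the falls held under all 4 scalings were miR-125a, miR-26a from both of its loci, miR-322, miR-503, miR-542, miR-320 and miR-467d. miR-125a, known from regulatory T cells and blood stem cells, was at 2875, 3346 and 5472 in Hopx-low and 983, 1812 and 2110.1 in Hopx-high libraries (Mir125a, log2 fold change -1.27 ± 0.31 (SE), adjusted p = 0.0235). It was called in 4 of 6 leave-one-out fits. miR-26a, a repressor of the histone methyltransferase Ezh2, is encoded at Mir26a-1 and Mir26a-2, whose mature sequence is the same, so that reads cannot be assigned to 1 locus. Mir26a-1 was at 11829.9, 10616 and 10335 and 3624, 7617 and 4949 (log2 fold change -1.08 ± 0.29 (SE), adjusted p = 0.026); Mir26a-2 was at 11939, 10755 and 10559.9 and 3714, 7646 and 4897. The 2 features rest on shared reads and count as 1 microRNA. miR-26b, which has the seed of miR-26a, was at 1794, 1584 and 1445 and 1235, 1434 and 1162; the groups did not overlap, but its log2 fold change was -0.33 ± 0.18 (SE), adjusted p = 0.263.

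miR-320 (Mir320), whose hairpin is processed without Drosha, was at 1014, 1047 and 1140.1 in Hopx-low and 470.5, 718 and 577 in Hopx-high libraries (log2 fold change -0.88 ± 0.24 (SE), adjusted p = 0.026). miR-342, from an intron of the cytoskeletal gene Evl, is abundant: it was at 75197, 72892 and 86849 and 32167, 47664 and 51521. Those groups did not overlap, yet its log2 fold change of -0.86 ± 0.34 (SE), adjusted p = 0.114, was not called. Under median-of-ratios scaling miR-342 was called, as were let-7b, let-7c, let-7e, miR-99b, miR-92a-1 and one locus of miR-181a. These lower values are therefore falls only under some scalings.

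Genomic clusters gave a second view, since hairpins of 1 transcript are made together. Tested hairpins on the same strand within 10 kb of each other formed 38 clusters with 99 features. Of these 99, 26 were called, against 50 of all 370 tested features with a RefSeq strand. Calls fell in 16 of these clusters, 9 of them with at least 2 calls, and none held calls in both directions. Features without a RefSeq strand could not enter these clusters. Among them were the called copies of the miR-297, miR-466, miR-467 and miR-669 hairpins described below, 11 higher and 1 lower. Since 55 of all 64 calls were rises, the lack of opposite calls in the 38 clusters says little. Nor does it mean that members moved alike, as the next clusters show.

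The cluster of miR-23a, miR-27a and miR-24-2 on chromosome 8 (chr8:84208518-84208921), whose members restrain helper T-cell differentiation, rose in 2 of its 3 members. miR-23a was at 1532, 1394 and 1569 in Hopx-low and 3558, 3307 and 3984 in Hopx-high libraries (log2 fold change 1.27 ± 0.19 (SE), adjusted p = 0.000767). miR-27a was at 286, 388 and 394 and 997, 870.2 and 865 (log2 fold change 1.37 ± 0.20 (SE), adjusted p = 0.000572). miR-24-2 was at 2252, 2044 and 2224 and 2145, 2598 and 2849, with overlapping groups. Mature miR-24 is the same from both of its loci, so its reads cannot be assigned to this cluster. In the second cluster, on chromosome 13, miR-27b was called (0.82, adjusted p = 0.0248, not under all 4 scalings), while miR-23b and miR-24-1 were not. The ratio of miR-27a to miR-24-2 was 0.127, 0.19 and 0.177 in Hopx-low and 0.465, 0.335 and 0.304 in Hopx-high libraries, with no overlap.

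The miR-183, miR-96 and miR-182 cluster on chromosome 6 is induced by interleukin signals in T cells, and its miR-182 represses Foxo1. miR-183 was at 96.8, 89.1 and 76.5 in Hopx-low and 213, 306 and 254 in Hopx-high libraries, and rose by a log2 fold change of 1.54 ± 0.30 (SE), adjusted p = 0.006. miR-182 was at 132, 96 and 107 and 202, 351 and 273, and miR-96 at 8.97, 6.02 and 6.73 and 18.8, 26.5 and 11.4. Neither pair of groups overlapped, but their adjusted p was 0.517 and 0.237. The spread in the test is shared with naive libraries, and naive replicate 2 was at 0 for both. Without that library the adjusted p was 0.00226 for miR-182 and 0.146 for miR-96, and with the 6 compared libraries alone it was 0.000829 and 0.0585. Summed over the cluster, levels were 206 ± 27.1 in Hopx-low and 552 ± 125 in Hopx-high libraries (mean ± SD, n = 3).

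The miR-17-92 polycistron on chromosome 14, which promotes proliferation of lymphocytes, changed unevenly. miR-18a (Mir18) was at 2633, 2992 and 1886 in Hopx-low and 4065, 5253 and 4436 in Hopx-high libraries and rose by 0.89 ± 0.21 (SE), adjusted p = 0.0144. miR-19a also rose, by 0.69 ± 0.20 (SE), adjusted p = 0.0336, but not under all 4 scalings. miR-17, miR-20a and miR-19b-1 lay near the median feature, at 0.14, 0.38 and 0.23. miR-92a-1 (Mir92-1) was lower in each Hopx-high library, at 6179.6, 6370.2 and 5509.6 and 3113, 5449.9 and 3969.6 (log2 fold change -0.56 ± 0.23 (SE), adjusted p = 0.123). The ratio of miR-18a to miR-92a-1 was 0.426, 0.47 and 0.342 in Hopx-low and 1.31, 0.964 and 1.12 in Hopx-high libraries, without overlap. Mature miR-92a and miR-19b are each made at 2 loci, on chromosomes 14 and X, and their reads cannot be told apart.

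The related clusters gave the same mixture. On the X chromosome, miR-363 was at 79.97, 94.1 and 69.4 in Hopx-low and 279.5, 198 and 199 in Hopx-high libraries and rose by 1.45 ± 0.24 (SE), adjusted p = 0.00185. miR-18b, with the seed of miR-18a, rose from 91, 90.1 and 59.8 to 138, 249 and 171 (log2 fold change 1.18 ± 0.30 (SE), adjusted p = 0.023, not under all 4 scalings). miR-106a, miR-20b and miR-19b-2 of that cluster were not called, at 0.53, 0.42 and 0.22, and miR-92a-2 was at -0.37. miR-363 and miR-92a share a seed and a transcript, yet their ratio was 0.0457, 0.0605 and 0.0458 in Hopx-low and 0.31, 0.127 and 0.146 in Hopx-high libraries. In the third cluster, inside the replication gene Mcm7 on chromosome 5, miR-106b and miR-25 were called (0.80 and 0.71, adjusted p = 0.026 and 0.034) and miR-93 was not (0.55, adjusted p = 0.0729). Neither of those calls held under all 4 scalings. Over both clusters 4 of 9 members were called higher and none lower, against 10.8% and 1.76% of all tested features, with a median log2 fold change of 0.55 against 0.23 over all tested features.

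A cluster on the X chromosome (chrX:53047997-53054349) held 3 of the 9 falls. miR-322, the mouse counterpart of human miR-424, was at 431, 408 and 326 in Hopx-low and 167, 209 and 146 in Hopx-high libraries, a log2 fold change of -1.16 ± 0.22 (SE), adjusted p = 0.00479. miR-503 was at 104, 135 and 98.4 and 54.5, 79.9 and 43.8 (log2 fold change -0.94 ± 0.25 (SE), adjusted p = 0.0258). miR-542 was at 73.7, 82.9 and 49.9 and 26.4, 29.1 and 27.8 (log2 fold change -1.25 ± 0.30 (SE), adjusted p = 0.0184). miR-322 and miR-503 belong to the miR-15/16 group of cell cycle repressors. miR-351 was lower without overlap but not called (-0.66, adjusted p = 0.199), and the 3 tested miR-450 hairpins, at mean levels of 2.0 to 14 in these groups, were not called. All 7 tested members had negative log2 fold changes.

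**Figure D3:**
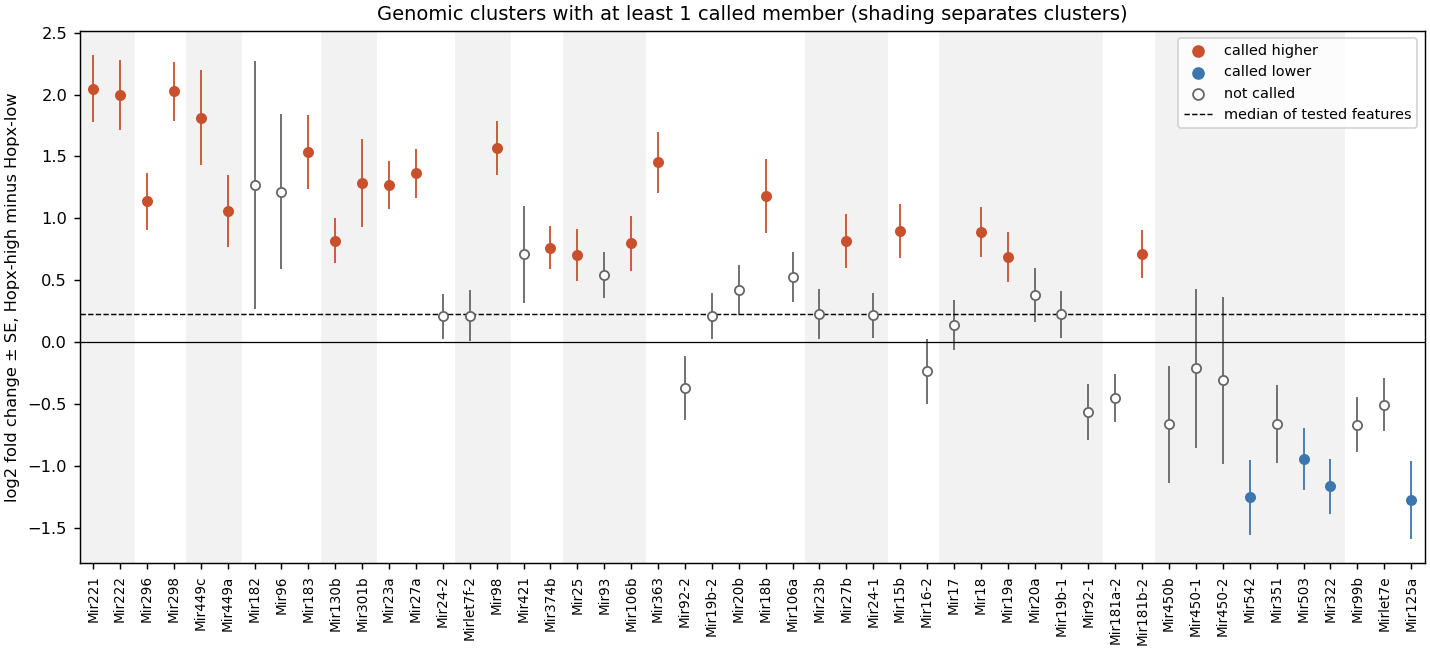
Log2 fold change, Hopx-high minus Hopx-low, with its standard error for each tested hairpin of the 16 genomic clusters that hold a call. Only hairpins with a RefSeq strand entered the clusters. Alternate shading separates the clusters, red is called higher, blue called lower and white not called. The miR-221 and miR-222 points sit together near 2, whereas members of the clusters of miR-23a, miR-17 and miR-106a spread from the dashed median line of 0.23 or below it to above 0.6.

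Seed families showed the same unevenness across separate transcripts. The miR-15/16 family has 8 tested hairpins, with 1 called higher and 2 lower, against 10.8% and 1.76% of all tested features. The 7 that share 1 seed held 1 rise and 1 fall. The other fall was miR-503, whose seed differs in its last base. miR-15b (Mir15b) was at 12209.9, 13936 and 10094 in Hopx-low and 23473, 21628 and 22000.5 in Hopx-high libraries and rose by 0.90 ± 0.22 (SE), adjusted p = 0.0184. miR-16, by far the more covered, was at 70079, 101589 and 113865 and 62363, 96845 and 82552 at Mir16-2 with overlapping groups (log2 fold change -0.23 ± 0.27 (SE), adjusted p = 0.651); its other locus has the same mature sequence. miR-15b and Mir16-2 lie next to each other in the gene Smc4, and their ratio was 0.174, 0.137 and 0.0886 in Hopx-low and 0.376, 0.223 and 0.267 in Hopx-high libraries. miR-322, with the seed of both, fell. The family's median log2 fold change was -0.09, against 0.23 over all tested features.

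The let-7 family, which represses genes of proliferation such as Lin28 and Myc, differed between its members. The family's summed level was 100545 ± 10588 in Hopx-low and 109174 ± 22660.2 in Hopx-high libraries (mean ± SD, n = 3), with overlapping groups. miR-98 (Mir98, chrX:151913214-151913321, plus strand) was at 299.7, 373 and 243 and 915, 981 and 793, and rose by 1.57 ± 0.22 (SE), adjusted p = 0.000572. let-7i (Mirlet7i, chr10:122985640-122985724, minus strand) was at 3316, 3942 and 2794 and 7376, 7166 and 5727, a rise of 1.02 ± 0.22 (SE), adjusted p = 0.0108. Both held under all 4 scalings, and no member was called lower in the fit per megabase. Naive libraries were at 409, 641 and 519.6 for miR-98 and 5158, 8030.1 and 5176 for let-7i, above every Hopx-low library.

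The other let-7 members did not share that rise. let-7c (Mirlet7c-1) was at 4382, 4095 and 4001 in Hopx-low and 1678, 3478 and 2421 in Hopx-high libraries, without overlap (log2 fold change -0.78 ± 0.25 (SE), adjusted p = 0.0552). let-7b was at 7718, 7748 and 6481 and 3819, 6579 and 4261, with 1 Hopx-high library inside the Hopx-low range (adjusted p = 0.0978). Under median-of-ratios and upper-quartile scaling both were called lower, in the latter at -1.01 and -0.85. The hairpins of let-7a, let-7d, let-7f and let-7g lay between 0.01 and 0.25, all with overlapping groups. miR-98 and let-7f-2 lie together in the gene Huwe1, and the ratio of the first to the second was 0.0314, 0.0348 and 0.0299 in Hopx-low and 0.0899, 0.0723 and 0.0844 in Hopx-high libraries. The ratio of let-7i to let-7c-1 was 0.757, 0.963 and 0.698 in Hopx-low and 4.4, 2.06 and 2.37 in Hopx-high libraries.

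The mature forms printed above differ by few bases. Counted from the 5′ end, let-7i has G12U, A17G, U18C and G19U relative to let-7c, and miR-98 has G11A and G19U. let-7b differs from let-7c by A17G alone and let-7a by G19A alone. The sources used here do not say how reads that match several members were placed, so members 1 base apart may share reads.

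**Figure D4:**
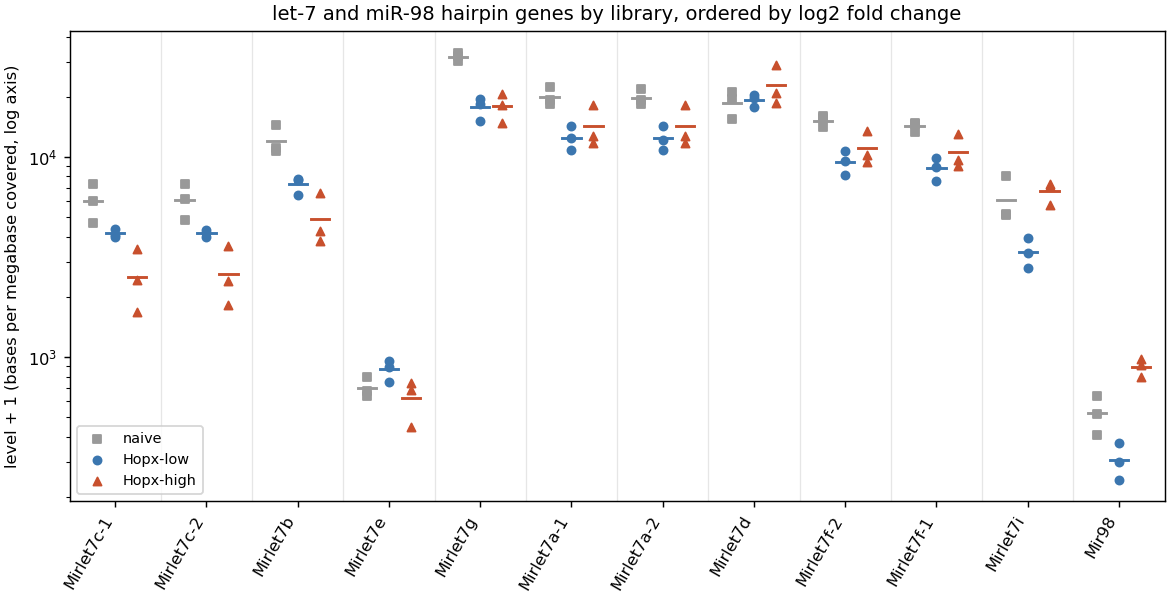
Level plus 1 (bases per megabase covered, log scale) of the 12 tested let-7 and miR-98 hairpin genes in each of the 9 libraries, ordered from the lowest to the highest log2 fold change of Hopx-high against Hopx-low; points are libraries and bars means of 3. Only Mirlet7i and Mir98, at the right, have all Hopx-high libraries above the Hopx-low libraries, while Mirlet7c-1, Mirlet7c-2 and Mirlet7e have them below.

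The miR-181 family tunes the strength of the T-cell receptor signal. Its main member miR-181a was lower in each Hopx-high library without passing the test: Mir181a-1 was at 7107, 8216 and 6683 and 5912, 6133 and 4669 (log2 fold change -0.40 ± 0.20 (SE), adjusted p = 0.215). miR-181b-2 was higher, at 711, 749.9 and 608 and 1195, 1278 and 934 (log2 fold change 0.71 ± 0.19 (SE), adjusted p = 0.026), but was not called under all 4 scalings. miR-181b-1, with the same mature sequence, was higher without overlap but not called (limma, log2 fold change 0.52 ± 0.19 (SE), adjusted p = 0.0978). The ratio of miR-181b-2 to the neighbouring Mir181a-2 was 0.102, 0.0932 and 0.0914 in Hopx-low and 0.217, 0.219 and 0.205 in Hopx-high libraries. Mature miR-181a is also the same from both of its loci, so neither the rise nor the ratio can be assigned to 1 locus. The miR-29 family, which represses T-bet, Eomes and interferon gamma, had no call in 4 members, and its sum was 4138 ± 925 in Hopx-low and 4132 ± 607 in Hopx-high libraries. None of 6 tested miR-30 members was called either.

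miR-103, miR-107 and miR-7 rose together with their near-identical loci. The 3 hairpins of miR-103 and miR-107 share a seed and were all called higher, at 0.67, 0.69 and 0.65. Mir7-1 and Mir7-2, with 1 mature sequence, were at 0.69 and 0.87. Others called were miR-101b (0.73), miR-185 (0.74), miR-324 (0.71) and miR-374b (0.77). miR-10a, a microRNA of regulatory T cells, was at 5.76, 5.99 and 5.03 in Hopx-low and 15.8, 22.8 and 29.1 in Hopx-high libraries (log2 fold change 1.80 ± 0.47 (SE), adjusted p = 0.0239). None of these held under all 4 scalings. In the list of microRNAs abundant in lymphocytes, 5 of 15 tested hairpins were called higher (miR-21a, miR-148a, both loci of miR-103, and miR-107) and 1 lower (miR-150), against 10.8% and 1.76% of all tested features. The 3 hairpins of miR-103 and miR-107 among them are near-identical, so they are not 3 separate results. This list, too, was chosen with earlier results of these data known.

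The miR-297, miR-466, miR-467 and miR-669 hairpins are near-identical copies, most of them in introns of Sfmbt2. Of 63 tested, 11 were called higher and 1 lower, read against 10.8% and 1.76% of all tested features. None of the 11 held under all 4 scalings, and the fall, miR-467d, did; it was at 651, 911 and 742 in Hopx-low and 335, 478 and 440.0 in Hopx-high libraries. The clearest rise, miR-466f-2, was at 49.8, 116 and 81.9 and 242, 183 and 198 (log2 fold change 1.39 ± 0.30 (SE), adjusted p = 0.0108). Reads of these copies cannot be assigned to 1 hairpin, so they are not 11 separate results.

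At the threshold, miR-25, Mir5104 and miR-669b were the last features inside, at adjusted p of 0.034, 0.0485 and 0.0485. Mir669a-10, Mirlet7c-1 and Mir7658 were the first outside, at 0.0518, 0.0552 and 0.0548. Among the larger rises of low coverage was Mir5123, at 21, 16.4 and 4.47 and 40.4, 43.7 and 67.1 (log2 fold change 1.97 ± 0.54 (SE), adjusted p = 0.026). Of the 10 most covered features, only miR-21a and miR-150 were called. Those not called were miR-16 at both of its loci, miR-142, miR-342, miR-191, let-7d, Mir3535 and Snord43. miR-142, which is specific to blood cells, was at 73414, 88205 and 80401 in Hopx-low and 64258, 62586 and 61479.8 in Hopx-high libraries (limma, adjusted p = 0.318). Snord43 and Mir3535 varied within groups, Snord43 from 5228 to 18855 in Hopx-low and from 10700.0 to 45524 in Hopx-high libraries.

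Genes that host microRNAs were read in the total RNA libraries, where each host's transcript carries the hairpin. Of 34 hosts tested, limma called 0, and 6 had an unadjusted p under 0.05. With 2.14% of all total RNA features called, a count of 0 among 34 is near the background and is no result about hosts. Their median log2 fold change was -0.12, against -0.10 over all 11320 features. Vmp1, which overlaps miR-21a, was at 49.5, 66.3 and 82 in Hopx-low and 102, 87.9 and 86.5 in Hopx-high libraries (log2 fold change 0.50 ± 0.25 (SE), adjusted p = 0.398). Mcm7, host of miR-106b, miR-93 and miR-25, was at 96.4, 80.3 and 64.6 and 142, 124 and 99 (log2 fold change 0.59 ± 0.25 (SE), adjusted p = 0.28). Smc4, host of miR-15b and Mir16-2, was at 112, 158 and 163 and 158, 229 and 159, with overlapping groups (log2 fold change 0.33 ± 0.21 (SE), adjusted p = 0.546). For these 3 hosts the mean was higher in Hopx-high cells, like the called microRNAs they host. Mir16-2, not called, was on the other side of 0, at -0.23.

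For 4 of the 12 called microRNAs with a tested host, the host's log2 fold change lay on the other side of 0, and none of these hosts was called. For Mir26a-1, Mir103-1 and Mir7-1 the same mature sequence is also made at another locus. Their values therefore cannot be assigned to the host named here. Rcl1, host of miR-101b, was at 70.2, 67.1 and 66.6 in Hopx-low and 46.9, 42.8 and 39 in Hopx-high libraries, lower in each of the latter (log2 fold change -0.66 ± 0.24 (SE), adjusted p = 0.193). Ctdspl, host of Mir26a-1, was at 0.915, 3.69 and 1.75 and 5.34, 4.94 and 10.5 (log2 fold change 1.38 ± 0.50 (SE), adjusted p = 0.191), while miR-26a fell. Pank3, host of Mir103-1, was at 8.28, 17.3 and 12.3 and 5.01, 19.8 and 6.9 (log2 fold change -0.40 ± 0.43 (SE), adjusted p = 0.77), and Hnrnpk, host of Mir7-1, at means of 95.5 and 81.8 (log2 fold change -0.25 ± 0.22 (SE), adjusted p = 0.714), both with overlapping groups. Ctdsp2, host of Mir26a-2 and much more covered, was at 342, 534 and 449 and 419, 426 and 402 (log2 fold change -0.06 ± 0.18 (SE), adjusted p = 0.927). Pank2, host of Mir103-2, was at means of 43.1 in Hopx-low and 54.0 in Hopx-high libraries (limma, log2 fold change 0.29 ± 0.26 (SE), adjusted p = 0.713). It lay on the same side of 0 as miR-103, with overlapping groups. Evl, host of miR-342, was at 797, 891 and 873 and 927, 837 and 739, with overlapping groups. Total RNA libraries were uneven in Lars2, which held 1.32% to 6.55% of bases in 4 of the 6 compared libraries but 17.98% in Hopx-low replicate 1 and, among Hopx-high libraries, 18.9% in replicate 3.

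**Figure D5:**
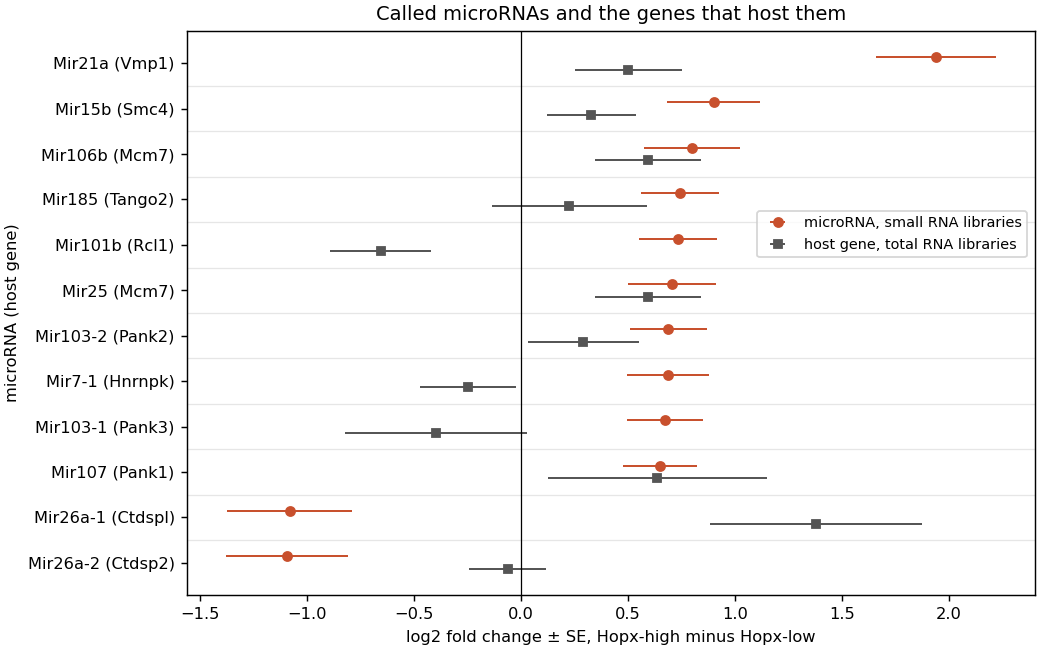
Log2 fold change, Hopx-high minus Hopx-low, with its standard error for the 12 called microRNAs that have a tested host gene; circles are the microRNAs in small RNA libraries and squares their hosts in total RNA libraries. No host was called; Rcl1, Ctdspl, Pank3 and Hnrnpk lie on the other side of 0 from their microRNA.

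Some markers of other cells were higher in Hopx-high libraries, and others were not. miR-223, a microRNA of neutrophils and monocytes, was at 153, 212 and 183 in Hopx-low and 362, 899 and 782 in Hopx-high libraries (log2 fold change 1.80 ± 0.44 (SE), adjusted p = 0.026; 1.57 (adjusted p = 0.0588) under upper-quartile scaling). miR-511, the other myeloid microRNA of the list, was at 0, 0.58 and 0.653 and 3.01, 5.98 and 1.18 (adjusted p = 0.133). The red cell microRNA miR-451a was at 19.5, 16.3 and 16.4 in Hopx-low and 69.6, 23.5 and 20.8 in Hopx-high libraries, higher in each of the latter but not called (log2 fold change 0.87 ± 0.42 (SE), adjusted p = 0.212). Its neighbour miR-144 was at 0.953, 0 and 0 and 5.93, 0.762 and 11.6, with overlapping groups (log2 fold change 2.10 ± 0.72 (SE), adjusted p = 0.0733). miR-126a, of endothelium, was at 93.4, 104 and 111 and 110.0, 155 and 163 (adjusted p = 0.233), and no member of the endothelial, epithelial or muscle, liver and neuron lists was called.

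In total RNA, the summed level of 3 myeloid markers was 7.02 to 27.5 in Hopx-low and 36.8 to 82.1 in Hopx-high libraries, and 1 of the 3, Csf1r, was called (adjusted p = 0.0365). Lyz2 was higher in each Hopx-high library but not called (limma, adjusted p = 0.143). Itgam was at 2.59, 3.79 and 3.98 in Hopx-low and 4.33, 3.32 and 3.54 in Hopx-high libraries, with overlapping groups (limma, adjusted p = 0.963). The sum of 3 B-cell markers was 5.29 to 6.88 and 21.9 to 35.8, and 1 of the 3, Cd79a, was called (adjusted p = 0.0474). For scale, the sum of Cd3e, Cd3g and Cd4 was 1122 to 1769 and 1446 to 1731, so markers of the labelled cell type were present in all 6 libraries. The neutrophil gene S100a8 and the platelet gene Pf4 were at 0 in every library, while the neutrophil gene S100a9 was at 0 in every Hopx-low library and at 0, 1.37 and 2.99 in Hopx-high libraries (adjusted p = 0.48). The dendritic cell markers Itgax and Zbtb46 were not called (limma, adjusted p = 0.789 and 0.383). The red cell gene Hba-a1 and the stromal list's Pecam1 were not called either (limma, adjusted p = 0.732 and 0.858). The 2 CD8 markers summed to 52.6 to 84 and 39.3 to 45.2, with 0 called. The part of these cells in the microRNA differences was not tested. In such bulk samples, fewer cells of a type and less RNA per cell cannot be told apart.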

How the data were processed

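Small RNA was sequenced in 9 libraries of CD4+ T cells, 3 each of naive, Hopx-low and Hopx-high cells, and total RNA in 9 more. Per the labels' protocols, Trizol and a mirVana kit were used for the RNA and Ion kits for barcoded libraries. The submitters' processing notes name mm10 and bedtools; not given in the sources used here are the aligner, the annotation and the placing of reads with more than 1 match. For each assay the authors deposited a table of signal, and each of its columns belongs to a labelled library. Inspection of the deposited signal showed aligned bases plus 1, scaled to a mean library total, since all values were whole multiples (within 1e-06) of the smallest in the column. Because bases are not reads, count models were left aside. Each value was turned back into bases per megabase covered in the library, which removes a floor set by depth.

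log2(level + 1) was tested with limma 3.58.1 (lmFit, eBayes with trend and robust settings; R 4.3.3) for features that reached the filter, with 1 estimate of the spread over all 9 libraries. Fold changes on this scale understate changes of low features. A feature was called at an adjusted p (Benjamini-Hochberg) below 0.05. The test was checked on simulated coverage first. The simulation gave all features 1 spread and as many rises as falls, so it cannot speak to the dependence of the calls on scaling. Tables and plots used Python 3.11.15, pandas 2.3.3, numpy 2.4.6, matplotlib 3.10.9. Positions and sequences are from RefSeq GRCm38.p6, the mm10 build; 457 of 510 tested features matched by name and 370 had a sequence.

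The 29 lists, the contrast and the rule for named features were chosen with earlier results of these data known. The rule took the 10 most covered features, the 12 largest rises and falls among calls at or above the median level, up to 3 members of each list by adjusted p, the members of clusters that hold such a rise or fall, a fixed set, and 3 features on each side of the threshold. Features outside the rule that are named, and all ratios, were picked after their values were seen. Families and clusters are described by counts, medians and sums; an exact permutation test of 3 against 3 libraries cannot give a p below 0.1 and is not quoted. Lists of germ line microRNAs, H/ACA box, Cajal body and structural RNAs had no tested member, and the lists of Dlk1-Dio3 microRNAs, C/D box RNAs and transfer RNAs had no call. The alternatives were other scalings, totals without the 5 most covered features, the deposited scale, pseudocounts of 0.1 and 5, other filters, other limma settings, the replicate number as a block, fewer libraries and other thresholds.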

Additional observations from a re-analysis of the deposited data

How the results depend on the processing

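Against 64 calls, 55 rises and 9 falls, the alternatives moved the counts as follows. Upper-quartile scaling gave 29 rises and 33 falls, median-of-ratios scaling 30 and 34, quantile normalization 22 and 21, and totals without the 5 most covered features 26 calls with 18 rises. All 29 and 30 of the rises and 9 of the falls under the first and second of these were among the main calls. A filter of 20 gave 15 falls, only the 6 libraries compared 16, annotated microRNAs alone 15 and an adjusted p below 0.1 also 16. limma without trend and robust settings called 14 (13 and 1), a test against a fold of 1.2 called 17 (15 and 2), and an adjusted p below 0.01 called 16 (14 and 2). The cause of these differences was not tested. Leaving out 1 library gave 20 to 85 calls, 16 to 68 rises and 2 to 17 falls, the highest of each without naive replicate 2. Pseudocounts of 0.1 and 5, the deposited scale, no filter and a filter of 5 gave 49 to 75 calls.

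With the replicate number as a block limma called 54 features (47 and 7), 53 of them shared. Same-numbered small RNA libraries did not deviate together (correlations of -0.04, 0.09 and -0.06), so the numbers were not taken to pair libraries. In total RNA the correlations were 0.191, 0.141 and 0.0606, each the highest that library had with any number, and sex goes with the number there. With the block Hopx had an adjusted p of 0.0255 and 0 hosts were called.

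Hopx in total RNA had log2 fold changes of 1.68 to 1.96 without 1 compared library. No family sum was past a threshold. Under median-of-ratios scaling the log2 ratio of sums turned sign for let-7 and miR-98 (-0.0930), miR-17-92 (-0.00370) and miR-30 (-0.0808). Without 1 library it ranged from -0.0654 to 0.204 for let-7 and miR-98, from -0.131 to 0.188 for miR-29 and from -0.0642 to 1.01 for transfer RNAs.

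Depth limits low features: at a level of 1, about 1 read separates the libraries.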
